A study of Mus musculus with 16 samples.

Results

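Neutrophil genes were followed in aged mouse liver, 9 of the 41079 genes of the deposited counts. They were named for their roles in neutrophil granules and on the cell surface: S100a8, S100a9, Ltf, Ngp, Camp, Mmp8, Mmp9, Csf3r and Retnlg. Poly-A selected liver RNA of 16 C57BL/6J mice aged 20 to 22 months was sequenced as paired reads, with 4 mice each in the male CRE-, male LKO, female CRE- and female LKO groups. All of the mice carried floxed Gcgr, the gene of the glucagon receptor. LKO mice also carried Cre under the Albumin promoter, which acts in hepatocytes, and CRE- mice were the floxed controls without Cre. Cre was directed to hepatocytes, so the neutrophils of an LKO liver are not cells that the model was built to change. Between 33268424 and 56488920 reads were counted on genes in a library, with group medians of 44288170 in male CRE-, 38475700 in male LKO, 46840916 in female CRE- and 37348800 in female LKO. The hepatocyte marker Alb stood at 51070, 74347, 89873 and 69968 CPM (counts scaled to equal library size by TMM factors) in replicates 1 to 4 of male CRE- and 48295, 53911, 69102 and 55657 CPM in male LKO. In females Alb stood at 92405, 90167, 94346 and 105504 CPM in CRE- and 41687, 71962, 69446 and 53284 CPM in LKO. Every female LKO library lay below every female CRE- library (log2 fold change -0.69, edgeR adjusted p 0.103), and the male groups overlapped.

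Gcgr, the targeted gene, was examined first. Gcgr stood at 190, 193, 127 and 190 CPM in replicates 1 to 4 of male CRE- and at 117, 136, 130 and 160 CPM in male LKO. In females it stood at 162, 208, 201 and 180 CPM in CRE- and at 48.8, 132, 119 and 93.6 CPM in LKO. The female groups did not overlap, while male CRE- replicate 3 lay within the range of the male LKO libraries. The log2 fold change of Gcgr in LKO was -0.93 (SE 0.25, edgeR adjusted p 0.0443) in females. In males it was -0.37 (SE 0.24, edgeR adjusted p 0.671). The count is taken over the whole gene, exons outside the deleted part included, so in males it does not check the labels of single libraries.

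Neutrophils carry antimicrobial proteins in granules that are filled in a fixed order while the cell matures in the bone marrow. Primary granules with myeloperoxidase and serine proteases are made early, specific granules with lactotransferrin and cathelicidin follow, and gelatinase granules with matrix metalloproteinase 9 come late. Transcripts of the early granule proteins are high in immature cells and low in circulating mature neutrophils, which keep S100a8, S100a9 and the receptor for granulocyte colony-stimulating factor (Csf3r). The liver holds patrolling neutrophils in its sinusoids and recruits more after injury or infection.

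All 9 neutrophil genes examined passed the filter on low counts and were among the 16742 genes tested of 41079. In GRCm39 coordinates the genes S100a8 (chr3:90576378-90577341) and S100a9 (chr3:90599937-90603028) are neighbours 22.6 kb apart. Camp (chr9:109676445-109678524), Ngp (chr9:110248876-110252080) and Ltf (chr9:110848360-110871834) lie near each other on chromosome 9, which also holds Mmp8 (chr9:7558430-7568487). Mmp9 (chr2:164782246-164797770), Csf3r (chr4:125917241-125938233) and Retnlg (chr16:48692971-48694861) lie on other chromosomes.

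Levels of different genes were compared per length, as RPKM (CPM divided by exon length in kilobases, mean ± SD, n = 4). S100a9 ranked highest in each of the 4 groups, at 54.7 ± 58.1 RPKM in male CRE-, 11.7 ± 3.99 in male LKO, 18 ± 7 in female CRE- and 162 ± 220 in female LKO. S100a8 ranked next in each group, at 38.2 ± 41.4, 8.07 ± 5.48, 12.9 ± 5.71 and 154 ± 228 RPKM in the same order. The calcium-binding pair thus led each group, with SDs above the means in the male CRE- and female LKO groups. Ngp stood at 12 ± 15.8 RPKM in male CRE- and 26 ± 38.1 in female LKO, next after S100a8 in both, and at 0.251 ± 0.111 in male LKO and 1.01 ± 0.752 in female CRE-. Mmp8 had the lowest mean in every group but male LKO, where Ltf was lower at 0.0586 ± 0.0496 RPKM against 0.101 ± 0.0532 for Mmp8. Of the 8 pairs of neighbours in each order, those that differed by more than the SD of both genes numbered 1 in male CRE-, 4 in male LKO, 2 in female CRE- and 0 in female LKO. These SDs run between libraries, while the genes of a pair were measured in the same libraries. The counts therefore do not decide the order within a library. In female LKO replicates 1 to 4, S100a8 stood at 63.4, 22.5, 34.8 and 496 RPKM and Ngp at 12.4, 1.25, 7.48 and 82.7 RPKM. By contrast, S100a9 lay below S100a8 in female LKO replicate 4, at 492 against 496 RPKM.

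The libraries of a group differed widely in these genes. Summed over the 9 genes, the level was 106, 23.3, 21 and 214 CPM in replicates 1 to 4 of male CRE- and 30.2, 18.9, 15.7 and 14.3 CPM in male LKO. In females the sum was 42.1, 23.6, 18.9 and 55.6 CPM in CRE- and 147, 49.9, 91.5 and 685 CPM in LKO. Male CRE- replicates 1 and 4 stood above every male LKO library, while male CRE- replicates 2 and 3 lay among them. Female LKO replicate 4 had the highest sum of all 16 libraries and the highest level of 7 of the 9 genes. The exceptions were Csf3r, highest in female LKO replicate 1, and Mmp9, highest in female CRE- replicate 4. In bulk liver RNA, more neutrophils, more RNA of a gene per neutrophil and RNA of the gene from other cells cannot be told apart.

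**Figure D1:**
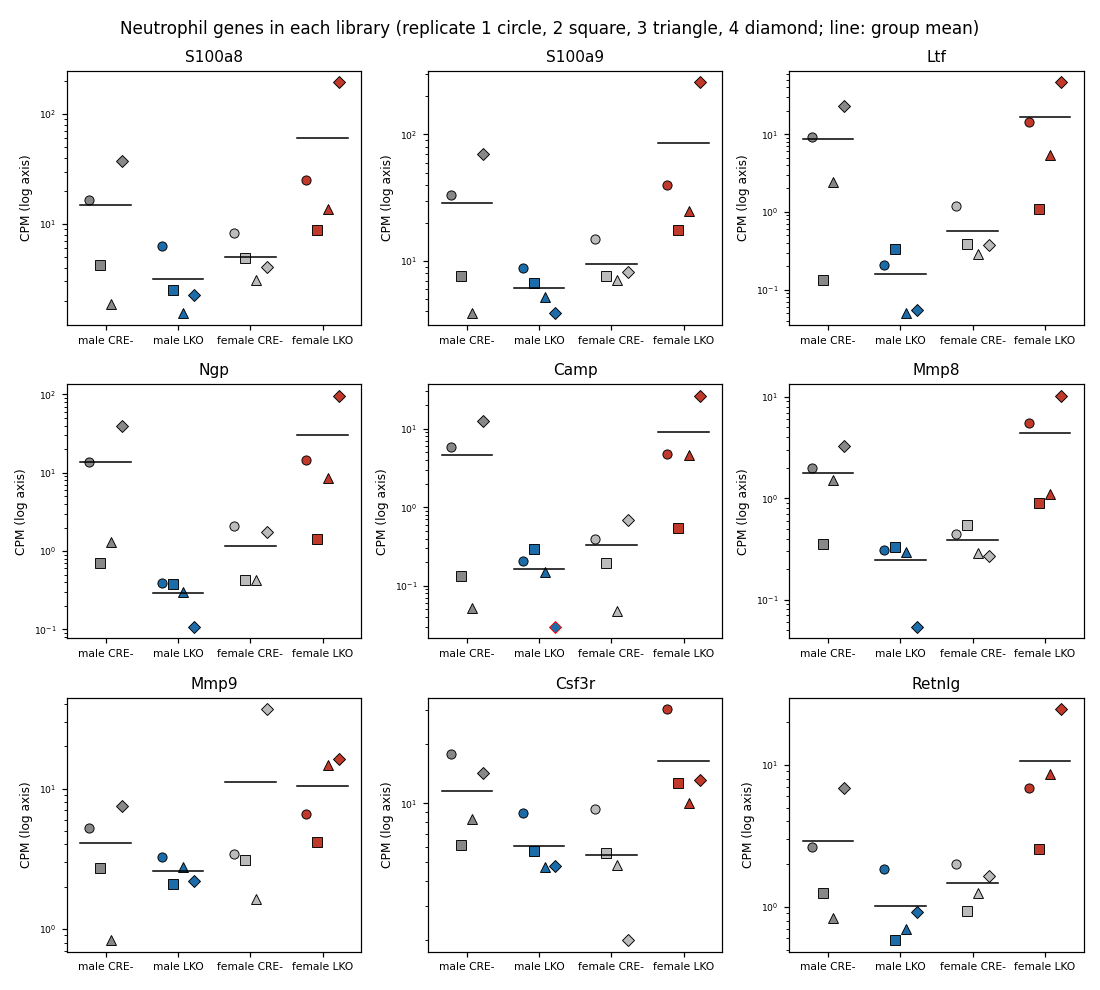
Level of each of the 9 neutrophil genes in the 16 libraries, in CPM on a log axis that differs between panels, with 4 mice a group and a line at the group mean. Female LKO replicate 4 is the highest library for 7 genes, while Mmp9 peaks at 36.6 CPM in female CRE- replicate 4. The point outlined in red, Camp in male LKO replicate 4, has 0 reads and is drawn at the bottom of its panel.

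S100a8 and S100a9 are calcium-binding proteins that pair in the neutrophil cytosol. In males, S100a8 stood at 16.4, 4.23, 1.87 and 37.3 CPM in replicates 1 to 4 of CRE- and at 6.33, 2.52, 1.54 and 2.27 CPM in LKO. In females, S100a8 stood at 8.23, 4.87, 3.06 and 4.06 CPM in CRE- and at 24.9, 8.83, 13.6 and 194 CPM in LKO. Male CRE- replicates 1 and 4 were high, and the other male libraries overlapped between the groups. In females every LKO library lay above every CRE- library, by a narrow margin in LKO replicate 2 and by a wide one in LKO replicate 4. The edgeR log2 fold change of S100a8 in LKO females was 3.58 (SE 0.99, edgeR adjusted p 0.0509), 11.9-fold higher, and the exact two-sided permutation p of the difference in mean log2 CPM was 0.0286, the smallest that 4 against 4 mice allow. Without female LKO replicate 4 the log2 fold change was 1.63. By the same test, the log2 fold change of S100a8 in LKO males was -2.24 (SE 0.95, edgeR adjusted p 0.45), 4.73-fold lower (exact permutation p 0.229).

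S100a9 is the partner of S100a8. In males, S100a9 stood at 33.4, 7.57, 3.87 and 69.8 CPM in replicates 1 to 4 of CRE- and at 8.75, 6.7, 5.17 and 3.89 CPM in LKO. In females, S100a9 stood at 14.9, 7.59, 7.09 and 8.18 CPM in CRE- and at 39.9, 17.6, 24.9 and 258 CPM in LKO. The libraries took nearly the same order as for S100a8, with female LKO replicate 4 highest and male CRE- replicate 4 next. The female groups did not overlap, and the male groups did, since male CRE- replicate 3 was the lowest male library. Compared with CRE-, the log2 fold change of S100a9 in LKO females was 3.17 (SE 0.88, edgeR adjusted p 0.0511), 9-fold higher (exact permutation p 0.0286), and 1.54 on the log2 scale without female LKO replicate 4. The male difference for S100a9 was a log2 fold change of -2.23 (SE 0.85, edgeR adjusted p 0.382, exact permutation p 0.286). The ratio of S100a8 to S100a9 CPM ran from 0.298 to 0.754 over the 16 libraries, a much narrower range than that of either gene.

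Ltf encodes lactotransferrin, an iron-binding protein of the specific granules. In males, Ltf stood at 9.31, 0.134, 2.44 and 22.8 CPM in replicates 1 to 4 of CRE- and at 0.206, 0.333, 0.0497 and 0.054 CPM in LKO. In females, Ltf stood at 1.2, 0.389, 0.287 and 0.374 CPM in CRE- and at 14.1, 1.1, 5.32 and 46.4 CPM in LKO. Male CRE- replicates 1, 3 and 4 lay above every male LKO library, but replicate 2 lay below 2 of them. In females LKO replicates 1, 3 and 4 were high, and LKO replicate 2 lay below CRE- replicate 1, so these groups overlapped too. The log2 fold change of Ltf in LKO females was 4.88 (SE 1.22, edgeR adjusted p 0.0369), 29.5-fold higher, with a log2 fold change of 3.58 without female LKO replicate 4, 5.56 without female CRE- replicate 1 and an exact permutation p of 0.0571. On the male side, the log2 fold change of Ltf in LKO males was -5.68 (SE 1.33, edgeR adjusted p 0.0839), 51.4-fold lower (exact permutation p 0.0857). The male LKO libraries held only 8, 16, 2 and 2 reads of Ltf, so the size of this fold is poorly fixed.

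Ngp encodes neutrophilic granule protein, also of the specific granules. In males, Ngp stood at 13.8, 0.713, 1.3 and 39.8 CPM in replicates 1 to 4 of CRE- and at 0.386, 0.375, 0.298 and 0.108 CPM in LKO. In females, Ngp stood at 2.08, 0.428, 0.431 and 1.76 CPM in CRE- and at 14.4, 1.45, 8.69 and 96.1 CPM in LKO. Every male CRE- library lay above every male LKO library, with replicates 1 and 4 far above and replicate 2 the nearest. In females LKO replicates 1, 3 and 4 were high, and LKO replicate 2 lay below CRE- replicates 1 and 4. With edgeR, the log2 fold change of Ngp in LKO females was 4.68 (SE 1.27, edgeR adjusted p 0.0483), 25.7-fold higher (exact permutation p 0.0857), which became 2.79 on the log2 scale without female LKO replicate 4. Against male CRE-, the log2 fold change of Ngp in LKO males was -5.55 (SE 1.38, edgeR adjusted p 0.108), 46.7-fold lower (exact permutation p 0.0286). The male LKO libraries held 15, 18, 12 and 4 reads of Ngp.

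Camp encodes the precursor of the cathelicidin antimicrobial peptide. In males, Camp stood at 5.84, 0.134, 0.052 and 12.7 CPM in replicates 1 to 4 of CRE- and at 0.206, 0.292, 0.149 and 0 CPM in LKO. In females, Camp stood at 0.399, 0.195, 0.0479 and 0.695 CPM in CRE- and at 4.78, 0.548, 4.61 and 26.4 CPM in LKO. Male CRE- replicates 1 and 4 were high, while replicates 2 and 3 lay within the male LKO range. Female LKO replicates 1, 3 and 4 lay above every female CRE- library, and LKO replicate 2 below CRE- replicate 4. The log2 fold change of Camp in LKO females was 4.77 (SE 1.41, edgeR adjusted p 0.064), 27.3-fold higher (exact permutation p 0.0571), and on the log2 scale 3.32 without female LKO replicate 4 and 5.40 without female CRE- replicate 4. By the same test, the log2 fold change of Camp in LKO males was -4.80 (SE 1.46, edgeR adjusted p 0.219), 27.9-fold lower (exact permutation p 0.286). Male LKO replicate 4 had 0 reads of Camp, where a floor of 3 reads is 0.081 CPM, and male CRE- replicate 3 had 2 reads.

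Mmp8 encodes neutrophil collagenase, a metalloproteinase of the specific granules. In males, Mmp8 stood at 2.01, 0.356, 1.51 and 3.28 CPM in replicates 1 to 4 of CRE- and at 0.309, 0.333, 0.298 and 0.054 CPM in LKO. In females, Mmp8 stood at 0.444, 0.545, 0.287 and 0.267 CPM in CRE- and at 5.49, 0.898, 1.1 and 10.2 CPM in LKO. The groups did not overlap in either sex, and the directions were opposite. Male CRE- replicate 2 exceeded the highest male LKO library only slightly, and female LKO replicates 2 and 3 were the nearest to their controls. The edgeR log2 fold change of Mmp8 in LKO females was 3.50 (SE 0.79, edgeR adjusted p 0.0266), 11.3-fold higher, with an exact permutation p of 0.0286, and the log2 fold change was 2.66 without female LKO replicate 4. On the male side, the log2 fold change of Mmp8 in LKO males was -2.82 (SE 0.79, edgeR adjusted p 0.162), 7.07-fold lower (exact permutation p 0.0286). The male LKO libraries held 12, 16, 12 and 2 reads of Mmp8.

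Mmp9 encodes the gelatinase of the late granules and is also made by other myeloid cells. In males, Mmp9 stood at 5.25, 2.72, 0.832 and 7.51 CPM in replicates 1 to 4 of CRE- and at 3.24, 2.08, 2.78 and 2.22 CPM in LKO. In females, Mmp9 stood at 3.42, 3.08, 1.63 and 36.6 CPM in CRE- and at 6.57, 4.19, 14.6 and 16.3 CPM in LKO. Female CRE- replicate 4 stood far above the other 3 female CRE- libraries and above every LKO library. Female LKO replicates 3 and 4 were the next highest, and the groups overlapped in both sexes. The log2 fold change of Mmp9 was -0.10 (SE 0.80, edgeR adjusted p 0.963) in females. The mean log2 CPM of Mmp9 was on the other side, higher in LKO by 0.83, with an exact permutation p of 0.457. Without female CRE- replicate 4 the edgeR log2 fold change of Mmp9 changed sign to 1.96. It also changed sign, to 0.08 and 0.16, without female LKO replicate 1 or 2. With limma and sample quality weights Mmp9 was higher in female LKO, with a log2 fold change of 1.74 and a limma adjusted p of 0.0409. Over the 18 alternatives the adjusted p of Mmp9 ran from 0.0409 to 1, and 1 passed. The male log2 fold change of Mmp9 was -0.66 (SE 0.82, edgeR adjusted p 0.825, exact permutation p 0.8).

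Csf3r encodes the surface receptor for granulocyte colony-stimulating factor and persists on mature neutrophils. In males, Csf3r stood at 17.8, 6.15, 8.29 and 14.3 CPM in replicates 1 to 4 of CRE- and at 8.93, 5.71, 4.72 and 4.81 CPM in LKO. In females, Csf3r stood at 9.38, 5.61, 4.84 and 2 CPM in CRE- and at 30.2, 12.7, 10.1 and 13.2 CPM in LKO. Here female LKO replicate 1, not replicate 4, was the highest library, and every female LKO library lay above every female CRE- library. Female CRE- replicate 4, where Mmp9 peaked, had the lowest Csf3r of all 16 libraries. The edgeR log2 fold change of Csf3r in LKO females was 1.60 (SE 0.45, edgeR adjusted p 0.0544), 3.03-fold higher (exact permutation p 0.0286), and 1.15 on the log2 scale without female LKO replicate 1. In males, where LKO replicate 1 lay above 2 CRE- libraries, the log2 fold change of Csf3r in LKO males was -0.95 (SE 0.44, edgeR adjusted p 0.519), 1.93-fold lower (exact permutation p 0.0857). The ratio of Ltf to Csf3r CPM was highest in female LKO replicate 4, at 3.51, and lowest in male LKO replicates 3 and 4, where Ltf had 2 reads each, so no fold is given for its range.

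Retnlg encodes resistin-like gamma, a secreted protein of myeloid cells. In males, Retnlg stood at 2.64, 1.25, 0.832 and 6.88 CPM in replicates 1 to 4 of CRE- and at 1.85, 0.583, 0.696 and 0.918 CPM in LKO. In females, Retnlg stood at 2.02, 0.934, 1.25 and 1.66 CPM in CRE- and at 6.85, 2.57, 8.58 and 24.6 CPM in LKO. Every female LKO library lay above every female CRE- library, with LKO replicate 4 highest and LKO replicate 2 lowest of the 4. Male CRE- replicates 1 and 4 lay above every male LKO library, and replicates 2 and 3 lay among them. With edgeR, the log2 fold change of Retnlg in LKO females was 2.86 (SE 0.69, edgeR adjusted p 0.0331), 7.26-fold higher, with an exact permutation p of 0.0286, and the log2 fold change was 2.04 without female LKO replicate 4. Against male CRE-, the log2 fold change of Retnlg in LKO males was -1.52 (SE 0.67, edgeR adjusted p 0.48), 2.87-fold lower (exact permutation p 0.2).

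**Figure D2:**
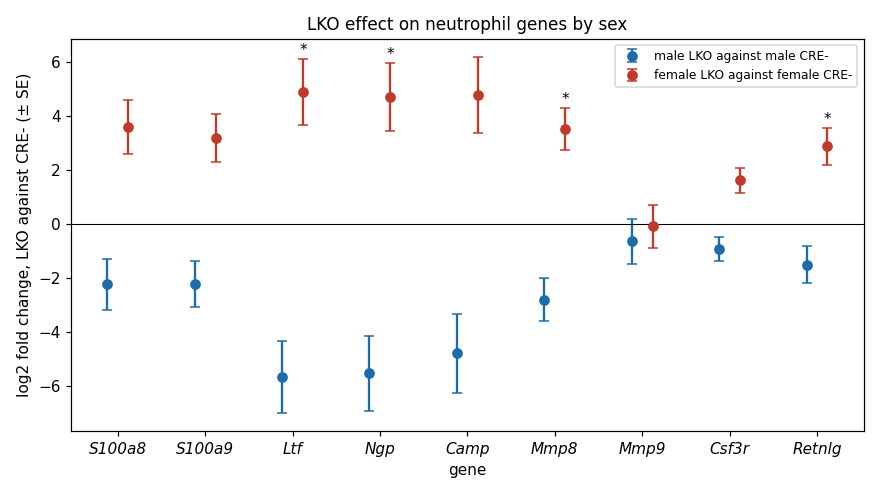
Log2 fold change in LKO against CRE- with its standard error for each of the 9 neutrophil genes, in males and in females, from edgeR with 4 mice a group. The male values lie between -5.68 and -0.66 and the female values between -0.10 and 4.88, and an asterisk marks the 4 female differences with an adjusted p under 0.05.

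In females, 4 of the 9 genes, Ltf, Ngp, Mmp8 and Retnlg, were higher in LKO with an edgeR adjusted p under 0.05, and none was lower. Of all genes tested, 710 (4.24%) passed in this comparison and 350 (2.09%) were higher. The 9 genes and the marker lists were chosen with earlier results of these data known. The shares over all genes, here and below, are therefore a description and no test of the 9 genes or of the lists. The median log2 fold change of the 9 genes was 3.50 against 0.04 over all genes tested. At an unadjusted p under 0.05 there were 8 of the 9 genes, against 21.4% of all genes, with Mmp9 the exception. The female LKO libraries lay entirely above the CRE- libraries for 5 of the 9 genes (S100a8, S100a9, Mmp8, Csf3r and Retnlg), as they did for 5.2% of all genes. DESeq2 put the same 8 genes past an adjusted p of 0.05, against 10.2% of the genes it gave an adjusted p. The count of 4 rested on adjusted p-values close to the threshold, between 0.0266 and 0.0483, with 0.0509 for S100a8, 0.0511 for S100a9 and 0.0544 for Csf3r just past it. Leaving out a library changed it to 1 without female CRE- replicate 1, to 0 without CRE- replicate 2, 3 or 4, to 0 without LKO replicate 1 or 4, to 8 without LKO replicate 2 and to 5 without LKO replicate 3. The 8 genes other than Mmp9 had a positive log2 fold change in each of these fits. With the replicate number as a block Ltf and Mmp8 no longer passed and Csf3r newly did. With each sex fitted alone 0 of the 9 genes passed, and the counts over all genes for both fits are given below. With limma and sample quality weights 4 of the 9 genes passed, S100a9, Mmp9, Csf3r and Retnlg, against 1976 of all genes, and of these only Retnlg is among the 4 of edgeR. Several log2 fold changes were then more than 1.5-fold smaller on the linear scale, at 2.001 for S100a8, 1.97 for S100a9, 3.49 for Ltf, 3.60 for Ngp and 1.85 for Mmp8. The number of all genes passing moved as well, from 87 without female CRE- replicate 2 to 1310 without female LKO replicate 2.

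In males, 0 of the 9 genes passed an edgeR adjusted p under 0.05, against 76 (0.454%) of all genes. All 9 log2 fold changes were negative, with a median of -2.24 against -0.01 over all genes. At an unadjusted p under 0.05 there were 8 of the 9 genes, against 9.53% of all genes. The male LKO libraries lay entirely below the CRE- libraries for Ngp and Mmp8, as they did for 2.92% of all genes. DESeq2 put 4 genes, Ltf, Ngp, Camp and Mmp8, past its adjusted p, against 1.72% of the genes it gave an adjusted p. By edgeR, leaving out male CRE- replicate 2, whose Ltf was low, put Ltf past the threshold, with a log2 fold change of -6.09, and left the other 8 genes short of it. Without male CRE- replicate 4 the male log2 fold changes were -1.25 for S100a8, -1.29 for S100a9, -4.56 for Ltf, -4.15 for Ngp, -3.59 for Camp and -0.64 for Retnlg, each more than 1.5-fold smaller on the linear scale. Without male LKO replicate 1 that of S100a8 was -2.85, and without male LKO replicate 2 that of Ltf was -6.37. With limma and sample quality weights the log2 fold changes were -4.77 for Ltf and -4.81 for Ngp. Of all genes, 26 to 49 passed with any 1 of the 8 male libraries left out.

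Whether the LKO effect differed between the sexes was tested as an interaction. The difference in log2 fold change, female minus male, was 10.57 (SE 1.81, edgeR adjusted p 0.104) for Ltf, 10.23 (SE 1.87) for Ngp and 6.32 (SE 1.12) for Mmp8, the genes with the smallest p. By edgeR 0 of the 9 genes and 0 (0%) of all genes had an adjusted p under 0.05, while 8 of the 9, against 16% of all genes, had an unadjusted p under 0.05. Their adjusted p ran from 0.104 to 0.144, with 0.834 for Mmp9. DESeq2 put 8 of the 9 genes, all but Mmp9, past its adjusted p, against 2.25% of the genes it gave an adjusted p. Permuting genotype within each sex gave an exact p of 0.000408 for Mmp8, the smallest these 4900 arrangements allow, 0.00122 for Ngp, 0.00245 for Ltf and 0.00245 for Csf3r. For S100a8 and S100a9 the exact permutation p was 0.0102 and 0.00776, and for Mmp9 it was 0.387. These permutations test for no LKO effect in either sex, so an effect in females alone or males alone could also give a small p. By edgeR, Ltf passed without male CRE- replicate 2, Ltf, Ngp and Mmp8 passed without female LKO replicate 2, and Ltf and Mmp8 passed without female LKO replicate 3. Of all genes, 2, 10 and 14 passed in these fits in the same order, and where 0 of the 9 genes passed, up to 14 did. The differences were smaller for the genes given here without either of the libraries with the highest sums of the 9 genes. Without female LKO replicate 4 they were 3.90 for S100a8, 3.79 for S100a9, 9.30 for Ltf, 8.36 for Ngp, 8.15 for Camp, 5.50 for Mmp8 and 3.58 for Retnlg. Without male CRE- replicate 4 they were 4.82 for S100a8, 4.46 for S100a9, 9.44 for Ltf, 8.83 for Ngp, 8.35 for Camp and 3.50 for Retnlg. Some were larger, namely 6.44 for S100a8 without male LKO replicate 1, 11.26 and 11.25 for Ltf without male LKO replicate 2 or female CRE- replicate 1, and 10.24 for Camp without female CRE- replicate 4. Against these stand 5.82 for S100a8, 5.40 for S100a9, 9.57 for Camp and 4.38 for Retnlg with all libraries. With limma and sample quality weights 0 of the 9 genes passed for the sex difference, against 29 of all genes, and the differences were 4.30 for S100a8, 4.03 for S100a9, 8.26 for Ltf, 8.41 for Ngp, 8.64 for Camp, 4.72 for Mmp8 and 2.58 for Mmp9. For Mmp9 the difference was 0.56 with all libraries and 2.66 without female CRE- replicate 4. These tests share the control libraries of each sex with the comparisons above.

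The controls of both sexes were also compared. Mean Ltf was 8.67 ± 10.2 CPM (SD, n = 4) in male CRE- and 0.562 ± 0.426 CPM in female CRE-, and mean S100a8 was 15 ± 16.2 and 5.06 ± 2.24 CPM. The means of 8 genes were lower in female than in male controls, and that of Mmp9 was higher by its value in female CRE- replicate 4, without which its log2 difference was -0.63 in place of 1.45. The log2 differences, female minus male, were -1.56 for S100a8, -1.60 for S100a9, -3.94 for Ltf, -3.57 for Ngp, -3.82 for Camp and -0.99 for Retnlg. Without male CRE- replicate 4 they were -0.57 for S100a8, -0.66 for S100a9, -2.81 for Ltf, -2.16 for Ngp, -2.60 for Camp and -0.11 for Retnlg. For Ltf the log2 difference was -4.62 without female CRE- replicate 1, and for Camp -4.48 without female CRE- replicate 4. With limma and sample quality weights it was -3.18 for Ltf and -0.46 for Mmp9. By edgeR 0 of the 9 genes passed, against 154 (0.92%) of all genes, and 5 had an unadjusted p under 0.05, against 12.7%. Of all genes, 68 to 149 passed with any 1 of the 8 control libraries left out, and 0 of the 9 did. DESeq2 put Ltf past its adjusted p, against 2.69% of the genes it gave an adjusted p. The ranges of the male and female controls overlapped for each of the 9 genes, since male CRE- replicate 2 or 3 was within or below the female range in each of them.

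The 9 genes did not follow each other equally. Over the 16 libraries, Pearson's r between the log2 CPM of a gene and the mean of the other 8 was 0.978 for Ngp, 0.963 for S100a9 and 0.959 for Camp, but 0.683 for Csf3r and 0.579 for Mmp9. With the group means removed it was 0.979 for Ngp, 0.396 for Csf3r and 0.517 for Mmp9. The 16 libraries share 4 groups, so these values are a description. The other genes tested whose log2 CPM was most like the mean of the 9 were Padi4 (r 0.955), Ms4a3 (r 0.942), Mpo (r 0.94), Chil3 (r 0.932), Ctsg (r 0.93), Cd177 (r 0.926), Fcnb (r 0.925) and Ifitm6 (r 0.914). With the group means removed they were Cd177 (0.938), Pglyrp1 (0.931), Fcnb (0.926), Fcgr3 (0.924), Ms4a3 (0.917), Plxnb3 (0.911), Padi4 (0.907) and Tmco6 (0.904). All of the genes named in these lists were highest in female LKO replicate 4. Ms4a3 had 0 reads in all 4 male LKO and all 4 female CRE- libraries.

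Further neutrophil genes were taken from 4 lists, which hold 45 genes, 37 of them tested. Beside the counts of these and the other lists stand the shares over all genes: in females 2.09% were higher by edgeR, 21.4% had an unadjusted p under 0.05 and 10.2% passed by DESeq2. In males 0.454% passed by edgeR, 9.53% had an unadjusted p under 0.05 and 1.72% passed by DESeq2. For the sex difference 0% passed by edgeR, 16% had an unadjusted p under 0.05 and 2.25% passed by DESeq2. By edgeR 5 of the 37 were higher in female LKO (Mpo, Ctsg, Chil3, Cd177 and Itgam) and 0 lower, with 29 at an unadjusted p under 0.05, 20 by DESeq2 in either direction. In males 0 passed by edgeR (9 at an unadjusted p under 0.05, 2 by DESeq2), and for the sex difference 0 (26 at an unadjusted p under 0.05, 15 by DESeq2). Of the 37 log2 fold changes, 36 were positive in females and 6 in males. Mpo, the myeloperoxidase of the primary granules, stood at 6.17, 0.401, 1.04 and 12.9 CPM in male CRE- and 0.103, 0.333, 0.298 and 0.054 CPM in male LKO. In females Mpo stood at 1.15, 0.117, 0.192 and 0.16 CPM in CRE- and 17.5, 0.399, 4.94 and 39 CPM in LKO. The libraries high in Ltf and Ngp were high in Mpo, namely male CRE- replicates 1 and 4 and female LKO replicates 1, 3 and 4. The log2 fold change of Mpo was 5.23 (SE 1.27, edgeR adjusted p 0.0332) in females. In males it was -4.65 (SE 1.29, edgeR adjusted p 0.155).

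Of the primary granule list, 2 of 5 genes tested passed by edgeR in females (4 at an unadjusted p under 0.05, 2 by DESeq2), and its median log2 fold change was 4.98 in females and -3.91 in males, or 4.04 and -3.03 with Ms4a3 set against a floor of 3 reads per library. Its summed level was 15.4, 3.23, 1.82 and 36 CPM in male CRE- and 0.36, 1.62, 1.19 and 2.7 CPM in male LKO. In females the sum was 56.9, 0.662, 0.623 and 2.46 CPM in CRE- and 49.6, 4.99, 24.1 and 154 CPM in LKO. Prtn3, the most abundant gene of the list, made up most of the sum of female CRE- replicate 1, where it stood at 54.4 CPM while Mpo stood at 1.15. The further genes of the specific and gelatinase granules had medians of 2.14 in females and -1.43 in males (-1.04 in males with Olfm4, at 0 reads in male LKO and named after its values were seen, at its floor), and 1 of 10, Chil3, passed by edgeR in females (8 at an unadjusted p under 0.05, 5 by DESeq2). Their most abundant gene, Hp, is a product of hepatocytes as well, so their sum is not of neutrophils alone.

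Of the neutrophil surface list, 2 of 14 genes tested passed by edgeR in females, Cd177 and Itgam (12 at an unadjusted p under 0.05, 9 by DESeq2), and the medians were 2.27 in females and -0.46 in males. Its sum was 64.8, 36.2, 40.3 and 74 CPM in female CRE- and 256, 73.7, 132 and 188 CPM in female LKO. In males it was 91, 33.8, 32.2 and 112 CPM in CRE- and 96.4, 41.5, 47.6 and 37.7 CPM in LKO. The highest library was female LKO replicate 1, as for Csf3r, and not replicate 4, and male LKO replicate 1 reached the level of the high male controls. The defining marker Ly6g, named here after its values were seen, did not pass the filter, had 0 reads in 9 of the 16 libraries and peaked at 1.91 CPM in female LKO replicate 4. Of 8 cytosolic neutrophil genes tested 0 passed by edgeR in either sex (5 in females and 3 in males at an unadjusted p under 0.05, 4 and 0 by DESeq2), with medians of 1.62 in females and -0.13 in males and Wfdc21 the most abundant. Of the 3 in males, Padi4 and Stfa2l1 were lower in LKO, and Asprv1 was high only in LKO replicate 4, at 4.81 CPM, with the other 3 LKO libraries at 0.412, 0.125 and 0.0994 CPM and the controls at 0.284, 0.401, 0.104 and 0.315 CPM (edgeR adjusted p 0.516).

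Genes that act with neutrophils were examined in the same way. Of the 6 subunits of the phagocyte NADPH oxidase 1, Cybb, passed by edgeR in females (6 at an unadjusted p under 0.05, 4 by DESeq2), where the median was 1.38, against -0.05 in males, and 0 passed in males (0 at an unadjusted p under 0.05, 0 by DESeq2). Of 7 transcription factors of granulocyte formation 0 passed by edgeR in either sex (3 in females and 0 in males at an unadjusted p under 0.05, 3 and 0 by DESeq2), with medians of 0.999 in females and -0.10 in males, and the most abundant, Cebpa, is also expressed by hepatocytes. Of the 3 female genes at an unadjusted p under 0.05, Cebpa was lower in LKO, with a log2 fold change of -1.002. The other 2 were higher, Cebpd (1.58) and Runx1 (1.64). Of the rest, Cebpb (0.57), Gfi1 (1.11) and Spi1 (0.999) had positive log2 fold changes in females, and Cebpe a negative one (-0.097). Their edgeR unadjusted p ran from 0.0554 to 0.754. In males the log2 fold change of Cebpe was 0.55 (edgeR unadjusted p 0.0875). All of these factors but Cebpa were named after their values were seen. Of 6 chemokines and cytokines tested that draw or sustain neutrophils 0 passed by edgeR in either sex (3 in females and 1 in males at an unadjusted p under 0.05, 3 and 0 by DESeq2, median 1.01 and -0.54), with Cxcl12 the most abundant. Of the 3 female genes at an unadjusted p under 0.05, Cxcl12 was lower in LKO, with a log2 fold change of -0.62. The other 2 were higher, Cxcl2 (2.18) and Ppbp (1.72). Cxcl2 had at most 8 reads in a female CRE- library and 40 in a female LKO library. Of the rest, Tnf (1.26) and Cxcl5 (0.77) were positive and Cxcl1 (-0.13) negative, with an edgeR unadjusted p of 0.106 to 0.882. Cxcl1 was highest in female CRE- replicate 1, at 95.3 CPM. Csf3 (0 reads in 15 libraries), Il17a (0 reads in all 16) and Il6 were among those not tested. All of these genes but Cxcl12 were named after their values were seen. Of 5 endothelial adhesion genes 0 passed by edgeR in either sex (4 in females and 1 in males at an unadjusted p under 0.05, 3 and 0 by DESeq2, median 1.10 and 0.17). Vcam1, the most abundant of these, stood at 541, 26.8, 52.2 and 56.2 CPM in replicates 1 to 4 of female LKO and at 28, 16.5, 21.4 and 53 CPM in female CRE-, so that LKO replicate 1 was far above the rest.

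Markers of other blood and liver cells moved in the same libraries in part. Of 9 Kupffer cell markers, 1, Adgre1, passed by edgeR in females (7 at an unadjusted p under 0.05, 5 by DESeq2), all 9 had positive female log2 fold changes (median 1.31), and 0 passed in males (0 at an unadjusted p under 0.05, 0 by DESeq2), with a median of 0.15. Their sum, led by Cd5l, was 951, 512, 250 and 1446 CPM in male CRE- and 1344, 719, 805 and 754 CPM in male LKO. In females it was 855, 633, 705 and 1463 CPM in CRE- and 3875, 1092, 2549 and 1580 CPM in LKO. The Kupffer sum was highest in female LKO replicate 1, while 4 of the 9 markers were highest in replicate 3, and female LKO replicate 4, the library with the most Ltf and Ngp, lay close to the highest control. Of 7 monocyte markers 0 passed by edgeR in either sex (7 in females and 0 in males at an unadjusted p under 0.05, 6 and 0 by DESeq2, median 1.85 in females and -0.77 in males), and their sum, led by Plac8, was 40.7, 17.6, 23.9 and 28.8 CPM in female CRE- and 150, 34.3, 69.7 and 68.6 CPM in female LKO. Of 4 markers of all leukocytes 0 passed by edgeR in either sex (3 in females and 0 in males at an unadjusted p under 0.05, 1 and 0 by DESeq2, median 1.05 and -0.10, led by Laptm5).

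Erythroid markers gave a further pattern. Of 8 tested 0 passed by edgeR in either sex (2 in females and 6 in males at an unadjusted p under 0.05, 1 and 1 by DESeq2), with medians of -1.30 in males and 0.58 in females, and the globin genes that lead the list, Hbb-bs the most abundant, have near-identical copies whose reads may be split. Their sum was 770, 627, 562 and 1042 CPM in male CRE- and 196, 393, 306 and 492 CPM in male LKO. In females it was 544, 484, 390 and 788 CPM in CRE- and 415, 872, 305 and 1656 CPM in LKO. All 4 male LKO libraries lay below all 4 male CRE- libraries, and female LKO replicate 4 was the highest of the 16, as it was for 7 of the 9 neutrophil genes. Of 7 platelet markers 1, Pf4, passed by edgeR in females (5 at an unadjusted p under 0.05, 2 by DESeq2), with a median of 1.57, and 0 passed in males (2 at an unadjusted p under 0.05, 0 by DESeq2), with a median of -1.60. The part of blood, of Kupffer cells or of other cells in the differences of the neutrophil genes was not tested.

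**Figure D3:**
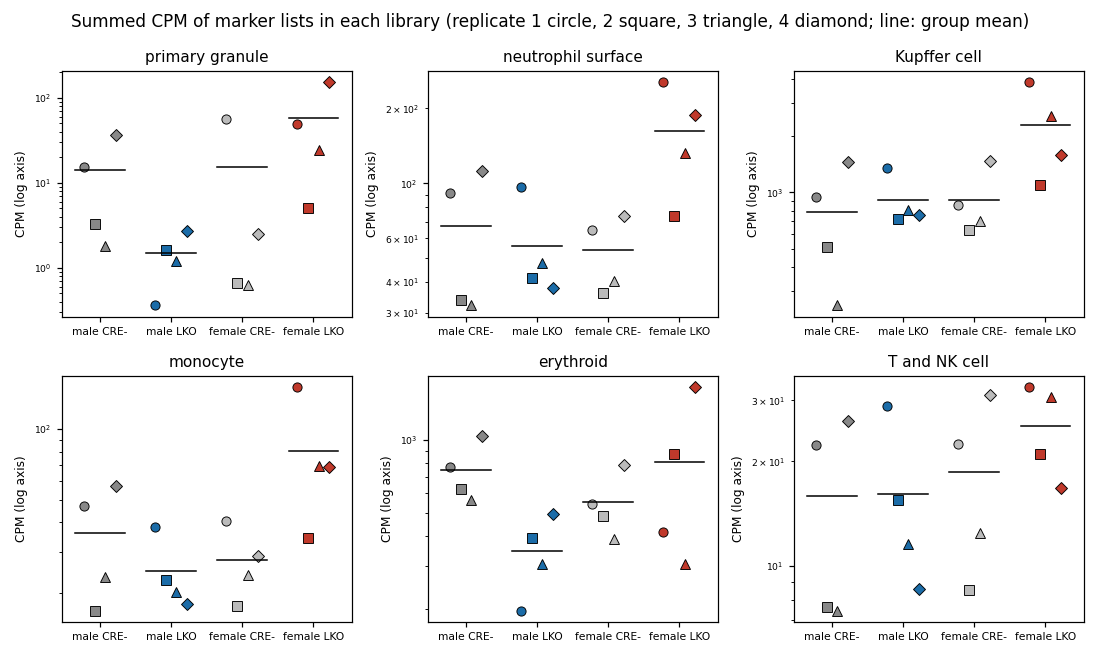
Summed CPM of 6 marker lists in the 16 libraries, on log axes that differ between panels, with 4 mice a group and a line at the group mean. Primary granule and erythroid sums are highest in female LKO replicate 4, at 154 and 1656 CPM, while neutrophil surface, Kupffer cell and monocyte sums are highest in female LKO replicate 1.

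Lymphocyte, progenitor and proliferation markers came last. Of 10 T and NK cell markers tested 0 passed by edgeR in either sex (1 in females and 0 in males at an unadjusted p under 0.05, 0 and 0 by DESeq2, median 0.26 in females and -0.15 in males, led by Nkg7), and their sum was 32.7, 21, 30.8 and 16.7 CPM in female LKO, lowest in replicate 4. In female CRE- their sum was 22.4, 8.51, 12.5 and 31 CPM, so female LKO replicate 4 lay within the range of the controls. Of 9 B and plasma cell markers 0 passed by edgeR in either sex (2 in females and 0 in males at an unadjusted p under 0.05, 0 and 0 by DESeq2, median 0.76 and 0.15, led by Ighm). Of 5 blood progenitor markers 0 passed by edgeR in either sex (1 in females and 1 in males at an unadjusted p under 0.05, 1 and 0 by DESeq2, median 0.47 and 0.20, led by Cd48), and of 2 eosinophil, basophil and mast cell markers tested 0 passed by edgeR in either sex (1 in females and 1 in males at an unadjusted p under 0.05, 0 and 0 by DESeq2, median 2.53 and -0.57, led by Prg2). Of 7 proliferation genes 4 were higher in female LKO (Birc5, Ccnb1, Cdk1 and Top2a, 7 at an unadjusted p under 0.05, 6 by DESeq2), with a median of 1.69 in females and -0.09 in males, led by Mki67, and 0 passed in males (0 at an unadjusted p under 0.05, 0 by DESeq2). Of 6 hepatocyte genes, led by Alb, 0 passed by edgeR in either sex (2 in females and 1 in males at an unadjusted p under 0.05, 2 and 0 by DESeq2, median -0.62 and -0.08).

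The promoters of the 4 genes past the threshold in females by edgeR are shown because these genes were high in the same libraries. RefSeq promoters of build GRCm38.p6, 250 bases before to 50 after the gene start, matched 8 of the 9 genes, all but Mmp9. They were searched on both strands for TTGCNNAA, letters bound by C/EBP factors, and for GAGGAA, letters bound by PU.1, both regulators of myeloid genes. TTGCNNAA was present in the promoters of S100a9, Ltf, Ngp, Mmp8 and Retnlg, 5 of the 8, against 10.8% of 27025 promoters. GAGGAA was present in S100a8, Ltf, Mmp8 and Csf3r, 4 of the 8, against 28.3%, and neither in the window of Camp. No match of the one kind overlapped a match of the other. A match is a description of the letters and no measured site. The 4 sequences are given 5′ to 3′ on the strand of the gene, for Ltf (chr9:111019042-111019341), Ngp (chr9:110419558-110419857), Mmp8 (chr9:7558179-7558478) and Retnlg (chr16:48872358-48872657), all on the + strand, with matches of either kind in capitals.
Ltf: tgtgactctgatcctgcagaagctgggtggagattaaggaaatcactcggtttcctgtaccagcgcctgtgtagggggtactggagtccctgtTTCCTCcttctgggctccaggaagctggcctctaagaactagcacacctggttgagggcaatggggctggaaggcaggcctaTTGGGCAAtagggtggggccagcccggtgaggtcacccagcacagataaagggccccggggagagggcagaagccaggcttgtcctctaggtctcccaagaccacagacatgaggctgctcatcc
Ngp: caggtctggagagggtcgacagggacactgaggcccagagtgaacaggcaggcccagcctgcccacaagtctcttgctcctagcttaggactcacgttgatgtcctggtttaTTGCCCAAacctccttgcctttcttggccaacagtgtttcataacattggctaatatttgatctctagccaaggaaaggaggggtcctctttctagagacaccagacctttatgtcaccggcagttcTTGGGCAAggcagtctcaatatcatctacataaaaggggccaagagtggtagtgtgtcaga
Mmp8: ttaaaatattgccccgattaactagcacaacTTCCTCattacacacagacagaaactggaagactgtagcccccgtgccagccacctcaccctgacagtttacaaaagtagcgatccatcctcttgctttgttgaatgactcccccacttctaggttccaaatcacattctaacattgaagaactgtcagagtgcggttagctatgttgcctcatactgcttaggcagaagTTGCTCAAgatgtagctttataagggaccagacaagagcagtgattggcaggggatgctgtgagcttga
Retnlg: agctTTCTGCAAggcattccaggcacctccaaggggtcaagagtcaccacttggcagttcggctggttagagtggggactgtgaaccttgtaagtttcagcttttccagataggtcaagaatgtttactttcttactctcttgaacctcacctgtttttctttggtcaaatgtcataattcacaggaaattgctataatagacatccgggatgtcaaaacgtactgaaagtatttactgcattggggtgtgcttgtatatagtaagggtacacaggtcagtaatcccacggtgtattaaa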

How the data were processed

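Liver RNA of 16 mice was analysed, grouped by the sample titles into 4 groups of 4. The authors aligned reads to GRCm39 with STAR 2.7.1a and, per the file headers, counted them with featureCounts (Subread 2.0.6) on RefSeq genes by strand, and they deposited unnormalized counts. The mates of a pair seem to be counted separately: 80.4% of the nonzero counts of the 9 genes and 67.7% over all genes were even numbers, so counting error may be larger than the counts imply.

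Genes were filtered with filterByExpr (minimum count 10), normalized by TMM and fitted jointly with edgeR 4.0.16 in R 4.3.3 (quasi-likelihood test, Benjamini-Hochberg adjustment over 16742 genes, threshold 0.05). DESeq2 1.42.0 and limma 3.58.1 were alternatives. Log2 CPM used a prior count of 2, and permutation tests were exact and two-sided over 70 arrangements within a sex, with a smallest p of 0.0286. All expression values come from the deposited counts, and the code was checked on simulated data. The genes and marker lists were chosen with earlier results of these data known. The genes named were the 9 genes, Gcgr, from each list those past the threshold (at most 6 per comparison), the most abundant gene and, for neutrophil lists, up to 4 more by female p, and the 8 genes most alike by each of the likeness measures. Ly6g, Olfm4, Cebpb, Cebpd, Cebpe, Gfi1, Runx1 and Spi1 were named as well, after their values were seen. So were Cxcl1, Cxcl2, Cxcl5, Ppbp, Tnf, Csf3, Il17a and Il6. The alternatives were other normalizations and filters, each sex alone, a replicate block, voom weights, stricter thresholds, a prior count of 0.5 and leaving out each library.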

Additional observations from a re-analysis of the deposited data

Results flagged for a closer look

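In 9 of the 36 sets of 4 libraries, 1 for each gene and group, the highest or lowest library stood apart from the other 3 by more than Dixon's 95% critical gap. Chance exceeds this gap in about 1 of 20 sets only where the values are normally distributed and the sets independent. The CPM values were skewed and not transformed, and the genes share their libraries, so 9 of 36 cannot be read against that rate. Of these, 4 came from female LKO replicate 4, with S100a8 at 194 CPM, S100a9 at 258, Ngp at 96.1 and Camp at 26.4. Female LKO replicate 1 stood apart in Csf3r at 30.2 CPM. Among the female controls, replicate 1 stood apart in S100a9 at 14.9 CPM and in Ltf at 1.2 CPM, and replicate 4 in Mmp9 at 36.6 CPM. Male LKO replicate 4 was low in Mmp8 at 0.054 CPM, which is 2 reads.

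For Mmp8 every male LKO library lay below the male controls and every female LKO library above the female controls, and the difference between the sexes in log2 fold change was 6.32 (edgeR adjusted p 0.104).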

How the results depend on the processing

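The count of genes past the threshold was sensitive to the tool and to single libraries. With DESeq2 it was 4 in males, 8 in females, 8 for the sex difference and 1 between controls, against 0, 4, 0 and 0 by edgeR, and of all genes 336, 1795, 372 and 499. With no filter on low counts it was 1 in males and 3 for the sex difference, against 91 and 12 of all genes. In females it was 1 with at least 10 counts in every library, where only 5 of the 9 genes were tested, 0 with each sex fitted alone and 0 at an adjusted p under 0.01, against 557, 119 and 51 of all genes. Leaving out each library in turn gave 0 to 8 in females, 0 to 1 in males and 0 to 3 for the sex difference. The cause of these changes was not tested.

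RLE and upper-quartile normalization, voom weights and a minimum log2 fold change of 1 left the counts within 1.5 times, though with voom weights only Retnlg of the 4 female genes was among those of edgeR, and neither normalization reversed a direction. Between controls 137 of 140 log2 fold changes kept their direction and side, 1 newly passed and 2, both of Mmp9, reversed. Over all alternatives 152 of 158 male log2 fold changes kept their direction and their side of the threshold and 6 newly passed it, all 6 negative. In females 98 of 158 did, 39 no longer passed, 16 newly passed and 5, all of Mmp9, reversed. For the sex difference 204 of 221 did and 17 newly passed. A prior count of 0.5 changed no verdict of the permutation tests.

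The female log2 fold change of Mmp9 was 1.74 with voom weights (limma adjusted p 0.0409, the 1 of 18 alternatives that passed, 0.0409 to 1 over them), and -0.46 to 1.96 with each library left out. Between controls it was -0.46 with voom weights and -0.63 to 1.92 with each library left out.

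Same-numbered libraries of a sex correlated in their deviations from the group means at -0.013 to 0.17 in males and 0.0281 to 0.173 in females, with 3 of 4 pairs over 0.1 in each sex. Not every pair was, so the numbers were not taken to pair the libraries. The replicate numbers are those of the sample titles. The numbers in the deposited library names differ from them for male CRE- replicate 4 and for female LKO replicates 3 and 4. Pairing by the library names was not tested. With the replicate number as a block 0 of the 9 genes passed in males, 3 in females and 0 for the sex difference, against 67, 1012 and 2 of all genes. In females Ltf and Mmp8 no longer passed and Csf3r newly did, and the female log2 fold change of Mmp9 was 0.79. Under the block the log2 fold changes were 2.37 for S100a8, 2.23 for S100a9, 4.02 for Ltf, 3.71 for Ngp, 4.15 for Camp and 2.86 for Mmp8 in females, and -1.57 for S100a8, -1.40 for S100a9, -4.72 for Ltf, -4.11 for Ngp and -3.03 for Camp in males. For the sex difference they were 3.94 for S100a8, 3.63 for S100a9, 8.74 for Ltf, 7.83 for Ngp, 7.18 for Camp, 5.41 for Mmp8 and 3.65 for Retnlg. Not every library correlated best with its own number.

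With 4 mice a group and 170 times between the male CRE- libraries in Ltf and 66.4 times between the female LKO libraries in Ngp, the size of these differences is loosely fixed. A floor of 3 reads was 0.0548 to 0.0867 CPM over the libraries, by counting error only and with reads taken as independent, which mates would not be. Ltf, Ngp, Camp and Mmp8 in male LKO lie near it. Cell shares were not measured, the cause of the differences was not tested, and no other tissue or age was analysed here.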
